A study of Mus musculus with 2 samples.

Results

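The genes described here are the chaperone genes of the mouse, taken by name. They are the protein-coding genes of the GENCODE M21 annotation whose symbols begin with Hspa to Hsph or with Hsp and a digit, with Dnaja, Dnajb or Dnajc, or with Cct and a digit. Tcp1, Hsf1, Hsf2, Pdia3, Calr and Canx were added, and Hspg2, which encodes a basement membrane proteoglycan, was left out. The rule used names and gene types and no measured value. It gave 88 genes, of 22028 protein-coding genes and 55536 gene entries quantified. The samples are whole limbs dissected on embryonic day 12.5 from mice of the strain B6NCrl, of mixed sex and healthy per the labels, with no treatment or genetic change named. They form 1 group, limb_E12.5, with 2 biological replicates: replicate 1 was a pool of limbs from 88 embryos and replicate 2 a pool from 68 embryos. Polyadenylated RNA was copied from an oligo-dT primer, from 10 ng of RNA per library, with ERCC spike-in RNA added. No second condition was compared, so the results are levels within embryonic limb, comparisons between chaperone genes, and the difference between the 2 pools. A whole limb holds many cell types, and in such bulk RNA fewer cells of a type and less RNA per cell cannot be told apart.

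Chaperones bind proteins that are not yet folded or have lost their fold. Hsp70 proteins bind short stretches of an unfolded chain in cycles of ATP hydrolysis. J-domain proteins (the DNAJA, DNAJB and DNAJC families) bring clients to Hsp70 and start its ATPase, and Hsp110 proteins exchange its nucleotide. Hsp90 acts later, on clients such as kinases and steroid receptors. CCT, a double ring of 8 different subunits, folds actin and tubulin in the cytosol, and Hsp60 with its lid Hsp10 does the equivalent work in mitochondria. In the endoplasmic reticulum (ER), Hspa5 (BiP) and Hsp90b1 (Grp94) fold secreted proteins beside the lectins Calr and Canx and the disulfide isomerase Pdia3. The transcription factor Hsf1 switches on many of these genes after heat shock through repeats of GAA in their promoters, called heat shock elements. ER chaperone genes answer ER stress through another sequence, the ER stress element. Limb mesenchyme and the cartilage that forms from it secrete collagen, which is folded in the ER.

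The deposited tables gave total expected counts over genes of 29633457 in replicate 1 and 30118921 in replicate 2. At that depth a transcript of 2000 nt at 1 TPM (the authors' measure of transcript copies, scaled for length and depth) is covered by 37.5 and 37.9 reads. The limb label was checked against 8 limb mesenchyme genes, which lay between 26.5 TPM for Hoxa13 and 375 TPM for Msx1. Muscle genes were present, from 89.6 TPM for Myog to 326 TPM for Actc1. The heart gene Nkx2-5 and the lens gene Crybb2 were at 0 TPM in each library, the heart gene Myh6 averaged 1.99 TPM and the lens gene Cryaa 0.175 TPM. The germ cell genes Ddx4, Dazl, Sycp3 and Prm1 lay between 0.05 and 0.445 TPM.

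Promoter windows are shown for members with the ER stress element or the long form of the heat shock element, and for 3 with its short form, because the elements are the known points of control of the heat and ER stress responses. Promoters came from RefSeq on GRCm38.p6, from 250 bases before to 50 after each start, and 72 of the 88 members had an entry. The other 16, which include Hspa8, Hsp90aa1, Hsp90ab1 and Hspa9, had none and were not searched for any element. The ER stress element was searched as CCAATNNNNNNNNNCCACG on both strands. It was found in 5 of the 72 members (6.94%), against 37 of all 27025 genes in the table (0.137%). All 5 members encode ER proteins, namely the lectins Calr and Canx, BiP, Grp94 and Dnajc3, a J-domain partner of BiP. The ER genes Pdia3, Dnajb9, Dnajb11, Dnajb12, Dnajb14, Dnajc1 and Dnajc10 were searched too and had no match. Each window is printed 5′ to 3′ in the direction of its gene, with the element in capitals; in Calr and in the first Hsp90b1 window listed the element lies on the opposite strand.
Hspa5, chr2:34772020-34772048, plus strand: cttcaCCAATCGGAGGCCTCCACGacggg
Dnajc3, chr14:118937822-118937850, plus strand: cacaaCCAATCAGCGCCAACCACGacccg
Canx, chr11:50325795-50325823, minus strand: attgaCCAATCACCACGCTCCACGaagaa
Calr, chr8:84847070-84847098, minus strand: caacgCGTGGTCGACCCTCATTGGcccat
Hsp90b1, chr10:86705528-86705556, minus strand: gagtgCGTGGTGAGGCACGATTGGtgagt
Hsp90b1, chr10:86705633-86705661, minus strand: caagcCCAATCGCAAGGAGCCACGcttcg
Hsp90b1 was the only member with 2 matches, and they start 107 and 212 bases before its RefSeq start. The levels of the 5 genes with this element spread widely, between 21.6 TPM for Dnajc3 and 634 TPM for Calr. A match is a description of the letters in this window and does not show binding.

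The heat shock element was searched as 3 alternating units, GAANNTTCNNGAA, on both strands. It was found in 4 of the 72 members (5.56%) and in 179 of the 27025 genes (0.662%). The members were Hspd1, Hspe1, Dnajb6 and Hsph1. Hspd1 (Hsp60) and Hspe1 (Hsp10) are transcribed away from each other, with 215 bases between the Hspe1 start and the RefSeq start of Hspd1 that lies outside Hspe1, and 1 run of 18 bases between them holds 2 overlapping matches. This run begins 127 bases from that Hspd1 start and ends 72 bases from the Hspe1 start. In GENCODE M21 it also lies in an exon of Hspd1-202, an alternative transcript with 3.6% of the Hspd1 TPM in each library. The capitals mark the matched bases.
Hspd1 and Hspe1, chr1:55088053-55088082, plus strand: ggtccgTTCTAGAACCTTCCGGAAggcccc
Dnajb6, chr5:29735844-29735872, plus strand: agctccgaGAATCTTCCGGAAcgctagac
Hsph1, chr5:149636280-149636308, minus strand: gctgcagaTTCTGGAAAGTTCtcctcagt
The Dnajb6 match starts 46 bases before the first of its RefSeq starts. The Hsph1 match, on the opposite strand, starts at base 16 or 37 of the transcript, depending on which of its 2 RefSeq starts is used.
The shorter form of 2 units, GAANNTTC, is contained in the longer one and was found in 16 of the 72 members (22.2%) and in 2442 of the 27025 genes (9.04%). Of the 16, the 3 shown are well-known heat shock genes without the longer form. The short form was present in the heat-inducible Hsp70 genes Hspa1a and Hspa1b and in Hspb1, which encodes the small heat shock protein Hsp25 and has 2 matches. The windows of Hspa1a and Hspa1b are identical, and both matches start 104 bases before the start.
Hspa1a, chr17:34972243-34972270, minus strand: gaaactgctgGAAGATTCctggccccaa
Hspa1b, chr17:34959325-34959352, minus strand: gaaactgctgGAAGATTCctggccccaa
Hspb1, chr5:135887792-135887819, plus strand: ttcaacaagaGAAGTTTCcagatggggg
Hspb1, chr5:135887812-135887839, plus strand: gatgggggcaGAACCTTCctggccccgc
Mean levels were 1.55 TPM for Hspa1a, 0.075 TPM for Hspa1b and 49.9 TPM for Hspb1. Over all 16 members with the short form, they ran from 0 TPM for Dnajc5g to 394 TPM for Hspe1.

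Most chaperone genes were expressed in the limb. Of the 88 genes, 76 (86.4%) reached 1 TPM in both libraries, the minimum used here for detection, against 58.1% of all protein-coding genes and 27.3% of all gene entries. At 100 TPM or more in both libraries stood 25 (28.4%), against 7.29% of protein-coding genes. The median level of the 76 detected members was 47.5 TPM, and that of detected protein-coding genes was 22.4 TPM. Over all 88 members, with the undetected ones included, the median was 31.3 TPM, against 3.88 TPM over all protein-coding genes. Together the members held 1.38% of the TPM of all gene entries in replicate 1 and 1.36% in replicate 2. This amount was concentrated in few genes, since Hspa8 and Hsp90ab1 held 24.4% of the members' TPM and the 10 most abundant members 58.2%.

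**Figure D1:**
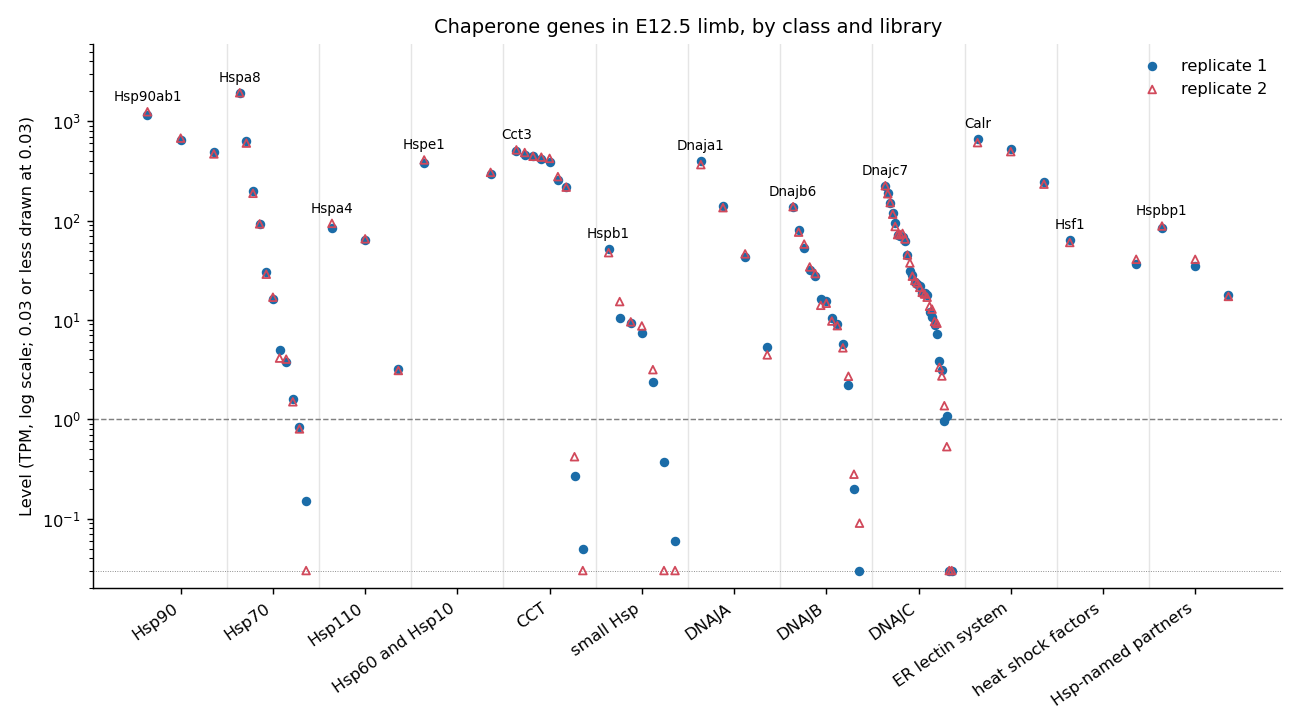
Level of each of the 88 chaperone genes (TPM, log axis) by class, with filled circles for replicate 1 and open triangles for replicate 2; the most abundant gene of each class is named, the dashed line marks 1 TPM, and values of 0.03 TPM or less are drawn at 0.03. Hsp90, CCT and the ER lectin system hold abundant genes, and the Hsp70 class runs from Hspa8 at 1937 TPM down to Hspa1b near 0.

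All 3 Hsp90 genes were abundant. Hsp90ab1, the constitutive cytosolic form, had 1152 TPM in replicate 1 and 1246 TPM in replicate 2 and ranked 57 among protein-coding genes. Hsp90aa1, the cytosolic form that heat induces, had 650.4 and 676 TPM. Hsp90ab1 was thus the higher of the cytosolic pair in both libraries, by 1.81-fold on average. The log2 ratio was 0.82 in replicate 1 and 0.88 in replicate 2, and genes near the level of the lower one differed between the libraries by up to 0.19 on the log2 scale (the 95th percentile over the 500 nearest genes, used below as the spread). Hsp90b1, the ER form, had 489 and 469 TPM, and Hsp90ab1 exceeded it 2.50-fold.

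The Hsp70 class ranged from one of the most abundant genes of the limb to genes that were not detected. Hspa8 (Hsc70), the constitutive cytosolic Hsp70, had 1937 TPM in each library and ranked 21 among protein-coding genes. Hspa5, which encodes BiP, had 638 and 603 TPM, and Hspa9, the mitochondrial Hsp70, 197 and 188 TPM. Hspa8 exceeded Hspa5 by a log2 ratio of 1.64, and Hspa9 over Hspa5 gave a log2 ratio of -1.69. Both ratios were larger than the spread in both libraries, so the cytosolic form was highest, the ER form next and the mitochondrial form lowest of the 3.
Hspa14, a ribosome-associated Hsp70, had 92.2 and 92.7 TPM, and Hspa13, a microsomal form, 30.5 and 28.9 TPM. Hspa12b, known from endothelial cells, had 16.1 and 16.9 TPM, and its relative Hspa12a 3.73 and 4.03 TPM. These 4 divergent members lay well below Hspa8 and Hspa5.

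The heat-inducible Hsp70 genes were close to silent. Hspa1a had 1.6 and 1.5 TPM, and Hspa1b 0.15 TPM from 7.98 expected reads in replicate 1 and 0 reads in replicate 2. For counting error alone, a count of 0 allows up to 3 reads, here 0.0556 TPM. The transcripts of Hspa1a and Hspa1b are 99.1% identical over 2200 aligned bases. The division of reads between them is therefore uncertain, and the limit of 3 reads does not cover it, but both were low. Hspa1l, a spermatid form in the same gene cluster, had 0.84 and 0.80 TPM. Hspa2, known from spermatogenesis, was detected at 5.03 and 4.13 TPM. In replicate 1 the ratio of Hspa8 over Hspa1b was 12915-fold. In replicate 2 it was 34812-fold with Hspa1b set to 3 reads, which is no firm bound because reads may be divided with Hspa1a.
Hsp110 proteins serve Hsp70 as exchange factors. Hspa4 had 84.2 and 93.8 TPM, Hsph1 63.2 and 65.6 TPM, and Hspa4l, best known from testis, 3.22 and 3.1 TPM. Hspa4 over Hsph1 gave log2 ratios of 0.42 and 0.52, beyond the spread of 0.24, but this order depended on which transcripts were counted, as described with the transcripts.

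Of the J-domain proteins, all 4 DNAJA genes, 11 of 13 DNAJB genes and 24 of 28 DNAJC genes were detected. Class medians of the detected members were 91.1 TPM for DNAJA, 15.1 TPM for DNAJB and 26.2 TPM for DNAJC.
Dnaja1, a main partner of cytosolic Hsp70, was the highest of all J-domain genes with 399 and 366 TPM. Dnaja2, its close relative, had 140.3 and 135 TPM, Dnaja3, the mitochondrial form, 43.0 and 46.3 TPM, and Dnaja4 5.38 and 4.45 TPM. Dnaja1 exceeded Dnaja2 2.78-fold, with a log2 ratio of 1.47 against a spread of 0.21.
In the DNAJB class the 5 highest genes were Dnajb6, Dnajb11, Dnajb1, Dnajb2 and Dnajb4. Dnajb6, which suppresses aggregation of polyglutamine proteins, had 137 and 138 TPM. The ER form Dnajb11 had 79.9 and 76.5 TPM, and Dnajb1, the heat-inducible Hsp40, 53.5 and 58.1 TPM. Dnajb1 over Dnajb6 gave log2 ratios of -1.36 and -1.25, so the inducible gene was the lower of this pair. Dnajb2, known from neurons, averaged 33.0 ± 1.68 TPM and Dnajb4 28.4 ± 1.29 TPM (SD, n = 2 each). Among ER forms, Dnajb9, which BiP uses to restrain the stress sensor Ern1, had 15.4 and 14.7 TPM, and Dnajb11 exceeded it 5.18-fold. The lowest detected member was Dnajb7 at 2.19 and 2.71 TPM.
The DNAJC class is the most diverse, and its 5 highest genes were Dnajc7, Dnajc9, Dnajc8, Dnajc19 and Dnajc15. Dnajc7, which binds both Hsp70 and Hsp90, had 225 TPM in each library. Dnajc9, a histone chaperone, had 191 and 186 TPM, and Dnajc8, a spliceosome component, 149 and 152 TPM. Dnajc19 and Dnajc15, both at the import motor of the mitochondrial inner membrane, had 119.95 and 116 TPM for Dnajc19 and 93.9 and 87.3 TPM for Dnajc15. Thus, with all transcripts counted, the most abundant DNAJC genes belong to histone handling, splicing and mitochondrial import as well as to folding. With protein-coding transcripts alone Dnajc9 led the class at a mean of 136 TPM, while Dnajc7 averaged 98.6 TPM and Dnajc15 4.28 TPM. The lowest detected member was Dnajc16 at 3.16 and 2.73 TPM.

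The 7 CCT subunits of the set were all abundant. Tcp1 (the alpha subunit) had 388 and 423 TPM, Cct2 218 and 217 TPM, Cct3 501 and 516 TPM, and Cct4 254 and 277 TPM. Cct5 had 457 and 484 TPM, Cct7 447 and 444 TPM, and Cct8 413 and 435 TPM. In both libraries Cct3 was highest and Cct2 lowest of these 7, with ratios of 2.30 and 2.37. With protein-coding transcripts alone Cct5 was highest, at 436 and 468 TPM, and Cct3 had 345 and 354 TPM, near Tcp1 at 338 and 364 TPM.
The remaining subunit, Cct6a, is outside the set because M21 annotates its gene as a processed transcript, while it encodes the zeta subunit. It had 598 and 569 TPM, the highest of the 8 subunits. With it, the ratio of highest to lowest was 2.75 in replicate 1 and 2.62 in replicate 2, and the coefficient of variation across subunits 30.5% and 28.1%. With the older annotation GENCODE M4, Cct6a averaged 454 ± 3.20 TPM (SD, n = 2) and Cct3 was highest, so the top subunit depended on the annotation and on the transcripts counted. Cct6b, the testis form of zeta, had 0.27 and 0.42 TPM from 9 and 14 reads. That is 2214-fold below Cct6a in replicate 1 and 1354-fold in replicate 2, or 1731-fold on average. Cct8l1, a relative of Cct8, had 0.05 TPM in replicate 1 and 0 reads in replicate 2. The somatic form of zeta was therefore far above the testis form in both libraries.

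**Figure D2:**
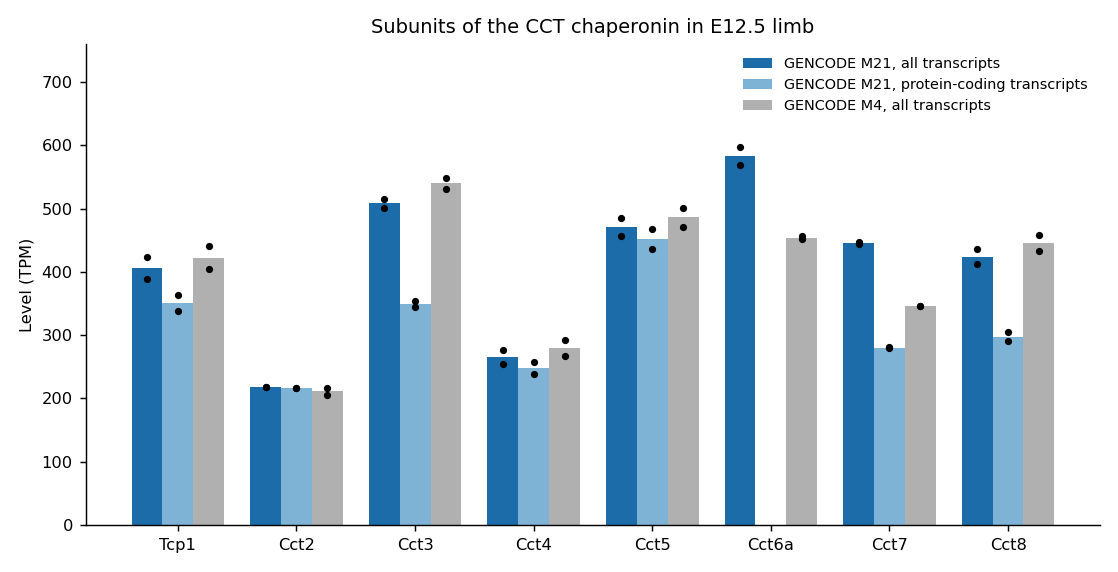
Level (TPM) of the 8 CCT subunits; bars are means of the 2 libraries and points the single libraries, for all M21 transcripts, for M21 transcripts annotated protein-coding and for M4. Cct2 is lowest under each of the 3 measures, and Cct6a, which has no protein-coding transcript in M21, is highest with all M21 transcripts; Cct5 is highest with protein-coding transcripts and Cct3 with M4.

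In mitochondria, Hsp60 and Hsp10 form a folding chamber. Hspd1 had 295 and 306 TPM and Hspe1 379 and 408 TPM. Hspd1 over Hspe1 gave a log2 TPM ratio of -0.39, beyond the spread of 0.18, with Hspd1 at 0.764 times the level of Hspe1. Their exons overlap on opposite strands in M21, and the use of strand in the counting is not given in the sources used here. All 8 genes of the mitochondrial list were detected, with a median of 104 TPM; besides those named, they were Dnajc11, a partner of the inner membrane organising complex, at 67.9 and 74.4 TPM, and Dnajc30 at 24.3 and 25 TPM.

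The ER genes were all detected, 13 of 13 on the list, with a median of 71.5 TPM. With all transcripts Calr, the soluble lectin, was highest at 658 and 609 TPM, followed by Hspa5. With protein-coding transcripts alone Hspa5 was the higher, at 506 and 483 TPM against 478 and 452 TPM for Calr. Hspa5 also had more expected reads, 26323 and 25325 against 22572 and 21331 for Calr. Pdia3, the disulfide isomerase that works on glycoproteins held by these lectins, had 521 and 495 TPM, and the membrane lectin Canx 245 and 233 TPM. Calr exceeded Canx 2.65-fold in TPM. The ER J-domain genes were lower: Dnajc10, a disulfide reductase, averaged 71.5 ± 1.28 TPM, Dnajc1 27.9 ± 0.431 TPM and Dnajc3 21.6 ± 0.46 TPM (SD, n = 2 each).

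Small heat shock proteins hold denatured proteins without ATP, and several are known from muscle. Hspb1 was the highest at 52.2 and 47.6 TPM. Hspb2 had 10.4 and 15.3 TPM, Hspb8 9.36 and 9.57 TPM, Hspb6 7.43 and 8.7 TPM, and Hspb3 2.38 and 3.16 TPM. Hspb7, known from heart, had 3 reads in replicate 1 and 0 in replicate 2, and Hspb9, known from testis, 4 and 0 reads. Thus 5 small Hsp genes were detected, and 4 of them lay under 16 TPM while muscle genes such as Actc1 were abundant. Over the 6 genes listed for muscle, Hspb1, Hspb2, Hspb3, Hspb6, Hspb7 and Hspb8, the median was 8.77 TPM, and Hspb1 exceeded Hspb8 5.26-fold. Hspb2 overlaps Cryab, which encodes alpha-B crystallin, on the opposite strand, and Cryab had 24.4 and 22.3 TPM.
A further 3 genes with Hsp in their names encode partners. Hspbp1, an exchange factor for Hsp70, had 83.6 and 88.2 TPM, Hspb11, a component of intraflagellar transport, 34.6 and 40.8 TPM, and Hspbap1, which binds small Hsp, 17.9 and 17.3 TPM.

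Of the set, 12 genes are known from germ cells, and they were mostly low, with 4 of 12 detected and a median of 0.292 TPM over all 12. Dnajb3 was the highest at 10.4 and 9.75 TPM. Dnajc5b and Dnajc5g had no read in either library, and 3 reads, the limit that a count of 0 allows, would be 0.183 TPM for Dnajc5b and 0.191 TPM for Dnajc5g in replicate 1. Dnajb8 had 0 reads in replicate 1 and 1 read in replicate 2, and Dnajb13 10.0 and 14.0 reads. Of the undetected members outside this list, Hspa1b and Hspb7 are given above. The others were Dnajc6, a neuronal auxilin, at 1.09 and 0.53 TPM from 61 and 54 reads, and Dnajc22 at 0.97 and 1.37 TPM.

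On the list of 10 stress-inducible genes, which includes the mainly constitutive Hspa8, 9 were detected, and Hspa1b was not. Hspa8, Hsp90aa1, Hspe1, Dnaja1 and Hspd1 stood at 295 TPM or more in both libraries. Hsph1, Dnajb1 and Hspb1 lay between 47.6 and 65.6 TPM, and Hspa1a and Hspa1b at 1.6 TPM or less. The pair that encodes the inducible Hsp70 was thus the lowest of the list.
Hsf1, which drives their induction, had 63.5 and 60.2 TPM, and Hsf2, a relative known from development, 36.9 and 40.8 TPM. Hsf2 over Hsf1 gave log2 TPM ratios of -0.78 and -0.56, against a spread of 0.25. Of 4 measures of level, only the M21 TPM of all transcripts put this ratio beyond the spread in both libraries. The mean log2 ratio was -0.35 with M4, -0.19 with protein-coding transcripts and -0.17 with counts not divided by length.

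The comparison of the 2 pools asks how stable these levels are. No member tested differed 2-fold: of 77 members at a mean of 1 TPM or more, 0 had an adjusted p under 0.05 and a 2-fold TPM ratio (exact binomial test on rounded expected counts, Benjamini-Hochberg over 15926 genes), against 1.02% of all genes tested. At 1.5-fold the count was also 0, against 2.61% of all genes tested, of which 1.45% were higher in replicate 2 and 1.16% higher in replicate 1. Without a fold minimum 19 of the 77 members passed, a larger share than the 19.0% of all genes tested. By TPM, 10 of them were higher in replicate 2 and 9 higher in replicate 1. An unadjusted p under 0.05 in this binomial test was found for 32 members. The share over all genes tested was not determined at that threshold, so the count does not set the members apart. The split of 10 and 9 was the same after TPM were rescaled over nuclear genes. The median absolute log2 difference was 0.07 for the members and 0.10 for all genes tested, and the 50 members at 20 TPM or more all lay within 0.26. These comparisons with all genes tested were not matched for level. The median was 47.5 TPM for detected members and 22.4 TPM for detected protein-coding genes. This test compares 2 libraries with counting error only, not conditions.
The 19 differences were small, with adjusted p in this exact binomial test from 5.41e-12 for Calr to 0.0442 for Hspd1. Among CCT subunits Tcp1 (log2 difference of replicate 2 minus replicate 1, 0.12), Cct4 (0.12), Cct5 (0.08) and Cct8 (0.08) were higher in replicate 2. The mitochondrial chaperonin genes Hspe1 (0.11) and Hspd1 (0.05) were higher there too, and so were Hspa4 (0.15), Hsf2 (0.14) and Dnajb1 (0.12). The ER genes Calr (-0.11), Hspa5 (-0.08), Pdia3 (-0.07), Canx (-0.07), Hsp90b1 (-0.06) and Dnajb12 (-0.19) were lower in replicate 2. The remaining genes lower in replicate 2 in TPM were Dnaja1 (-0.13), Hspa9 (-0.06) and Dnaja2 (-0.06). The test used expected counts, and those of Dnaja2 went the other way, from 6642 in replicate 1 to 7056 in replicate 2. The farthest from 0 was Hspb2 at 0.52, with adjusted p = 0.0163.

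**Figure D3:**
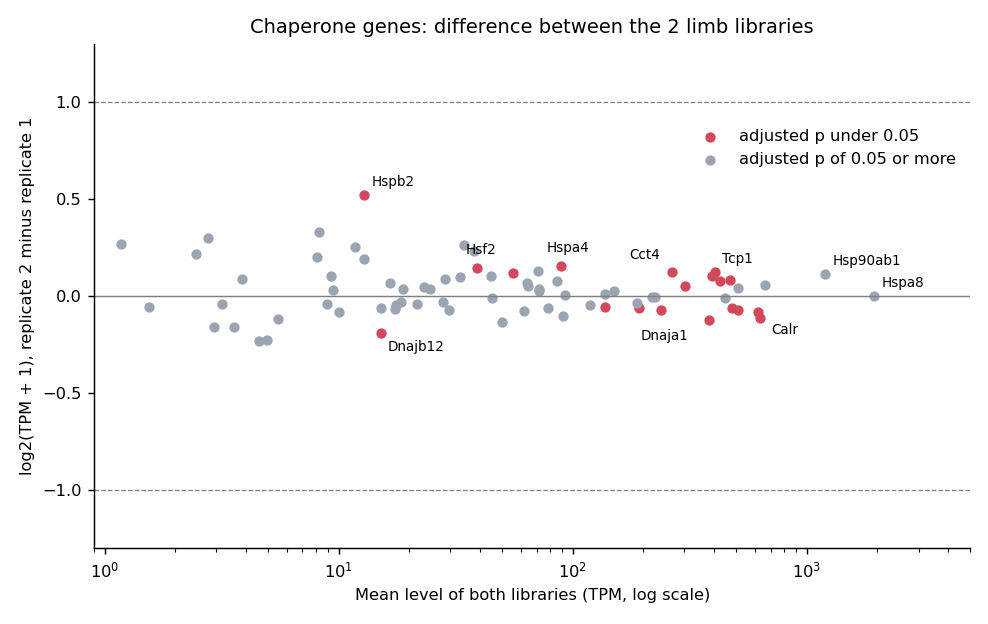
Difference between the libraries, log2(TPM + 1) of replicate 2 minus replicate 1, against mean level (TPM, log axis) for the 77 members at a mean of 1 TPM or more; red points had an adjusted p under 0.05 in the exact binomial test, and dashed lines mark a difference of 1. Every point lies between the dashed lines, and Hspb2 at 0.52 is the farthest from 0.

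The transcript tables divide each gene's TPM among its annotated transcripts. Of the 76 detected members, 15 (19.7%) had a second transcript at 25% or more of the gene's TPM in both libraries, against 20.3% of detected protein-coding genes. For 17 members (22.4%) transcripts not annotated as protein-coding held 25% or more in both libraries, against 26.0%. The median share in such transcripts went the other way, at 12.1% for detected members and 9.13% for detected protein-coding genes. For 5 members the leading transcript was not annotated as protein-coding, and the share of such genes among detected protein-coding genes was 9.81%. The share with a second transcript was near that of detected protein-coding genes.
Hspa8-202, the leading Hspa8 transcript, held 55.9% and 55.2% of the gene's TPM, and Hspa8-203, a processed transcript of 598 nt, 22.5% ± 0.672 (SD, n = 2). For Hsp90aa1 the leading entry was Hsp90aa1-208, a protein-coding model of only 711 nt, with 47.5% and 49.7%, while the full-length Hsp90aa1-202 of 3281 nt held 24.8% and 24.2%. By reads the order was the opposite, with 3736 and 4099 expected reads for Hsp90aa1-208 and 10148 and 10366 for Hsp90aa1-202. TPM divides by length, so short models take large shares from few reads.
Several CCT genes divided their TPM. Cct3-203, a retained intron of 472 nt, held 29.1% of Cct3 in each library. Cct7-202, a transcript annotated for nonsense-mediated decay, held 36.7% and 35.4% and led Cct7, ahead of the protein-coding Cct7-201 at 32.3% and 33.3%. Cct8-209, also annotated for decay, held 27.7% and 27.9% of Cct8. In Tcp1 and Cct4 both leading transcripts are protein-coding, with Tcp1-201 at 34.1% and 34.4% and Cct4-201 at 36.0% and 35.3% in second place. Pdia3-203, annotated for decay, held 26.6% of Pdia3 in each library.
Outside the abundant genes, Dnajc15 had 95.3% of its TPM on average in models not annotated as protein-coding. Its only protein-coding model, Dnajc15-202 of 6193 nt, had 4.29 and 4.27 TPM. Hspa4 had 2 transcripts of similar share, the processed transcript Hspa4-203 at 42.7% and 41.6% and the protein-coding Hspa4-201 at 42.7% and 39.8%. Dnajc5-204, annotated for decay, held 44.8% and 54.0% of Dnajc5, which encodes the synaptic cysteine string protein, and Dnajc2-207, a retained intron, 42.3% and 43.0% of Dnajc2, a ribosome-associated factor. The share in models not annotated as protein-coding averaged 81.3% for Dnajc1, 58.7% for Hspa4, 56.1% for Dnajc7, 54.6% for Dnajc5 and 44.4% for Dnajc2. Dnajc14 divided its TPM between the protein-coding Dnajc14-202 at 46.8% and 50.2% and Dnajc14-207 at 44.2% and 34.9%. Counting protein-coding transcripts alone lowered the median of the detected members to 35.5 TPM. Hspa8 then averaged 1312 ± 10.2 TPM and Hsp90ab1 1022 ± 10.9 TPM (SD, n = 2 each), still the first and second of the set.

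**Figure D4:**
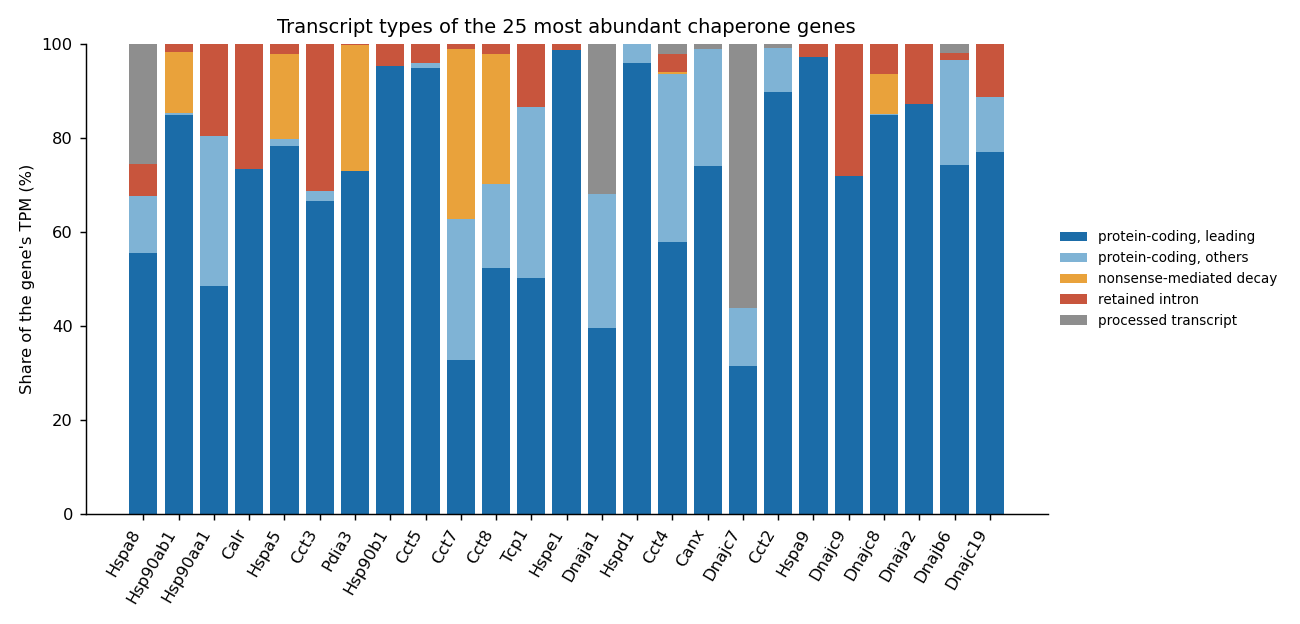
Share of each gene's TPM (%, mean of both libraries) by annotated transcript type for the 25 most abundant members, in order of level; the leading protein-coding transcript is separated from the other protein-coding ones. Cct7, Cct8 and Pdia3 carry large shares annotated for nonsense-mediated decay, and Dnajc7 carries 56.1% in models not annotated as protein-coding.

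The ratios between related genes were set against these choices. All 15 pairs compared lay beyond the spread in both libraries with the M21 TPM, 14 with M4 and 13 with counts not divided by length. With protein-coding transcripts 13 of 14 did, since Cct6a has no such transcript in M21 and its pair has no value. The spread measures how far the same gene differed between the libraries. It does not cover errors of length or annotation that differ between genes. How many pairs of unrelated genes lie beyond the spread was not determined. The counts therefore show that the ratios exceeded the difference between libraries, and do not set the related pairs apart from other pairs. For Hspa4 over Hsph1 the direction changed with protein-coding transcripts, at a log2 ratio of -0.68 against 0.47 with all transcripts; Hspa4 then had 36.0 and 37.4 TPM and Hsph1 60.03 and 57.58 TPM. Dnajc19 over Dnajc15 had a log2 ratio of 0.38 with M21, -0.27 with M4 and 4.61 with protein-coding transcripts, so the order of these import genes rests on the annotation. Hspd1 over Hspe1 was 1.35 on the log2 scale in counts not divided by length, where the leading transcripts are 2423 nt for Hspd1 and 774 nt for Hspe1. The orders of Hsp90ab1 over Hsp90aa1, Hspa8 over Hspa5, Hspa9 under Hspa5, Dnaja1 over Dnaja2 and Calr over Canx kept their direction in all 4 measures.

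**Figure D5:**
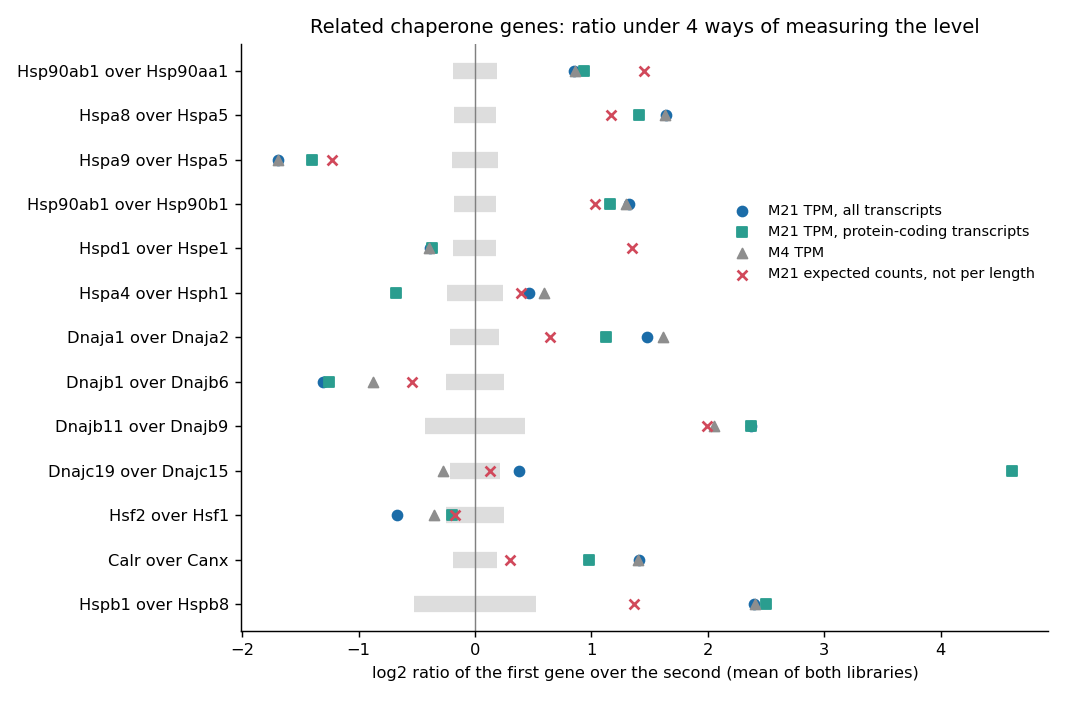
log2 ratio of the first gene over the second (mean of both libraries) for 13 of the 15 pairs under 4 measures of level; grey bars span the spread between libraries with the M21 TPM. The pairs Hspa8 over Hspa1b and Cct6a over Cct6b lie beyond the axis and are left out. Hspd1 over Hspe1, Hspa4 over Hsph1 and Dnajc19 over Dnajc15 have points on both sides of 0.

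M21 and M4 gave similar levels for most members. Of 76 members compared, 2 (2.63%) were 1.5-fold or more apart, against 5.93% of protein-coding genes, and both were higher with M21. Hspbap1 averaged 17.6 ± 0.431 TPM with M21 and 7.97 ± 0.24 TPM with M4, and Dnajb14, an ER J-domain gene, 8.91 ± 0.205 TPM with M21 and 5.91 ± 0.46 TPM with M4 (SD, n = 2 each). The median log2 ratio of M21 over M4 was -0.07 for the members and -0.06 for protein-coding genes. Of the other members, Hsf1 (log2 of TPM + 1, M21 over M4, 0.49), Dnajc14 (0.41) and Cct7 (0.36) were the next highest with M21. Dnajb1 (-0.48), Dnajc15 (-0.44), Dnajb9 (-0.38), Dnajc12 (-0.27) and Hspa13 (-0.11) were the lowest. Hspa14 was not compared, because its M21 identifier was not found among the M4 entries.

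Retrocopies and overlapping genes can share reads with the members. Sequence comparison found 58 pseudogene copies of 22 members at 90% identity or more over at least 50% of the copy. Copies took at most 4.31% of the summed reads of a detected member and its copies, in Dnaja1 in replicate 2. Hspa8 has 10 such copies, which took 0.196% and 0.115%. Exons of 30 members overlap a gene on the other strand, and exons of 10 overlap a gene on the same strand. Reads of such overlaps cannot be assigned with certainty, on opposite strands wherever strand was not used.

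Of the members, 14 start within 1000 nt of a protein-coding neighbour transcribed the other way. Pairs whose ends overlap, as Hspd1 and Hspe1 do in M21, were not counted. The share of all genes with such a neighbour was not determined. Levels on the 2 sides ranged from similar to far apart. Hsp90b1 had 489 and 469 TPM and its neighbour Ttc41, 302 nt away, 1.62 and 2.01 TPM. Cct5 had 457 and 484 TPM and Fam173b, 48 nt away, 9.28 and 8.95 TPM. For Dnajb1 the neighbour was the more abundant, Tecr at 453 and 461 TPM. Dnajc2 and its neighbour Psmc2, 32 nt away, lay closer together, at means of 63.8 and 158 TPM. Hsf1 and its neighbour Bop1, a ribosome biogenesis factor 145 nt away, had similar levels, 63.5 and 60.2 TPM for Hsf1 and 61.3 and 63.4 TPM for Bop1.

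Genes that work with these chaperones were listed beside them, and none differed 1.5-fold between the libraries with an adjusted p under 0.05. All 26 cochaperones of Hsp70 and Hsp90 were detected, with a median of 97.3 TPM. The highest were Ptges3 (p23) at 443 and 474 TPM, Fkbp4 at 428 and 457 TPM and Nudc at 293 and 311 TPM, and the lowest was Bag3, which is itself stress-inducible, at 6.77 and 7.31 TPM.
Of the prefoldin subunits, tubulin cofactors and other CCT partners, 17 of 18 were detected, with a median of 87.9 TPM over all 18. Pfdn5 had 337 and 355 TPM, Tbca 230.2 and 238 TPM and Tbcb 173 and 171 TPM, while Pdcl2, known from testis, had 0 reads. Bbs10 and Bbs12, CCT-like genes needed to assemble the ciliary Bardet-Biedl complex, were low, with 5.6 and 5.45 TPM for Bbs10 and 7.88 and 7.78 TPM for Bbs12.
In the list of other ER folding genes, 28 of 29 genes were detected, with a median of 39.5 TPM over all 29. Serpinh1 (Hsp47), the collagen chaperone, was the highest at 989 and 948 TPM, above every ER member of the chaperone set. P4hb had 493 and 494 TPM and Pdia6 486 and 464 TPM, while Calr3, known from testis, had 0.61 and 1.27 TPM. The list of other mitochondrial folding genes was detected in full, 8 of 8, with a median of 42.9 TPM, from Pam16 at 93.4 and 88.7 TPM, Trap1, the mitochondrial Hsp90, at 66.8 and 69.0 TPM and Lonp1 at 52.3 and 51.9 TPM down to Grpel2 at 18.2 and 16.1 TPM.
Of the 7 crystallins and stress factors, 3 were detected and the median over all 7 was 0.3 TPM. Detected were Hsbp1 at 234 and 233 TPM, Serp1 at 120 and 122 TPM and Cryab. Hsf4, known from lens, was the lowest at 0.14 and 0.10 TPM.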

How the data were processed

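Limbs of mouse embryos were sequenced as 2 libraries of polyadenylated RNA, and replicate numbers come from the labels. The members, lists and pairs were chosen with earlier results of these data known. The authors estimated expected counts per gene and transcript and deposited them, in the column layout of RSEM. TPM and FPKM, scaled by the authors for length and depth, were deposited beside them; levels are in TPM and FPKM served as an alternative. The TPM values cover spike-ins, which held 7.34% and 5.13% in replicates 1 and 2. Rescaled TPM, an alternative, leave out spike-in, tRNA and mitochondrial genome entries. The deposited tables also give each transcript's percent of its gene, recomputed here from TPM, and the bounds of an interval of TPM, read as a signal and not printed. Tables for GENCODE M21, the main annotation here, and for M4 were made on mm10, per the labels. Which aligner and program were used, and whether strand was, is not given in the sources used here. Depths were 29633457 and 30118921 expected counts.

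Symbols and types came from the M21 annotation. For the libraries, expected counts were rounded and each gene was tested by the exact binomial test, two-sided, given edgeR 4.0.16 TMM sizes (alternative: DESeq2 1.42.0 size factors), and called at an adjusted p under 0.05 and 2-fold. Printed differences between libraries use log2(TPM + 1), which understates changes of low genes; pair ratios use log2 TPM without a pseudocount, with genes under 3 reads set to 3. Intervals and limits cover counting error only, and p-values measure the difference of 2 pools. The test was checked on simulated counts of 15926 genes, 200 of them changed 3-fold, with the fold taken from counts and not from TPM. It recovered 192 of the 200 and also called 18 unchanged genes. Copies were found with blastn 2.17.0+. Named genes, by rule, are all members of the Hsp, CCT, ER lectin and heat shock factor classes, the 5 most abundant and the lowest detected of each J-domain class, all pair members, members called different between the libraries, the 10 most abundant with a second transcript at 25%, the 5 in each direction that differ most between M21 and M4, and the 3 most abundant and the lowest of each partner list. Genes with a printed promoter, other members of the lists, undetected members, those with an adjusted p under 0.05 at any fold, those with a large non-coding share, the divergent neighbours, Bbs10 and Bbs12 were named after their values were seen. The alternatives tried are given in the closing section.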

Additional observations from a re-analysis of the deposited data

Results flagged for a closer look

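In all, 8 pseudogene entries outside the chaperone set, each 90% or more identical to a member, had 1 TPM or more in both libraries, which is above the limit of 3 reads. The highest was Gm16550, a copy of Dnajc9 of only 126 nt, at a mean of 139 TPM from 66.7 and 82.4 expected reads. Gm15542, a copy of Dnaja1, had 19.2 TPM from 400.0 and 433 reads, and Gm7816, another Dnaja1 copy, 1.43 TPM. Hspd1-ps3 had 4.22 TPM and Gm12346, a copy of Hsp90aa1, 2.62 TPM. The Dnajb6 copies Gm6395 and Gm2541 had 1.88 and 1.61 TPM, and Dnajc19-ps 1.49 TPM. Identity to the member ran from 98.3% for Gm2541 to 100% for Gm16550, and whether these reads come from the copies or from the parent genes was not tested.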

How the results depend on the processing

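The number of detected members stayed between 67, at a minimum of 5 TPM, and 79, at 0.5 TPM, under every setting run, and 0 members were called different between the libraries under each scaling, minimum and annotation run. The median level of 47.5 TPM became 41.8 with M4, 49.3 with TPM rescaled over nuclear genes, 35.5 with protein-coding transcripts (an alternative chosen after seeing the data) and 32.2 as FPKM, and ranged from 45.3 to 46.3 with either library alone. The share of transcript abundance became 1.40% with M4 and after rescaling. The CCT ratio of 2.68 became 2.56 with M4, 2.55 with counts not divided by length, 2.34 over the 7 subunits annotated protein-coding and 2.09 over those with protein-coding transcripts, both chosen after seeing the data. Members with a second transcript numbered 44 at 10% instead of 15 at 25%, and 19 to 20 in either library alone. In 3 pairs the ratio changed direction: Dnajc19 over Dnajc15 with M4 (-0.27), Hspd1 over Hspe1 with counts (1.35) and Hspa4 over Hsph1 with protein-coding transcripts (-0.68); the cause was not tested. With protein-coding transcripts 14 of the 15 pairs had a value and 13 lay beyond the spread. The median log2 difference between the libraries was 0.02 and became -0.01 after rescaling. Of the single levels, 51 of 75 moved by more than 1 SD with M4 and 62 of 76 after rescaling. No paired analysis was possible because there is 1 group of 2 libraries. Dnajc6 and Dnajc22 reached 1 TPM in 1 library only. Depth limits the precision of low genes, since 1 TPM over 2000 nt is 37.5 and 37.9 reads in replicates 1 and 2.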
